A study of Mus musculus with 122 samples.

Results

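CTCFL was induced in mouse embryonic stem cells that kept their endogenous CTCF, and the poly(A) RNA of 3 libraries of induced cells was compared with that of 3 libraries of untreated cells of the same line. These are 6 of the 38 RNA-seq libraries and of the 122 samples of the series, chosen by their labels. The cells were E14Tg2a (129/Ola, XY), a male line grown without feeders in serum with LIF and inhibitors of GSK3 and MEK. Both groups carried the CTCF-AID alleles, in which endogenous CTCF bears an auxin-inducible degron, the auxin receptor Tir1, and a Flag-CTCFL-mRuby2 transgene at the Tigre locus, and came from a selected clone. Untreated cells are called U, and cells given only doxycycline (Dox, 1 µg/ml) to switch on the transgene are called D. The labels give 24 h of treatment, while the treatment protocol gives 2 days for RNA-seq. No auxin was given to either group. D thus differs from U in both Dox and the transgene product, which this contrast cannot separate. Where a comparison is made with CTCF depleted, I cells had auxin (IAA, 500 µM) and ID cells had auxin with Dox. The labels number the replicates but do not say that they are separate cultures, so p-values measure the spread between these libraries, which may be technical.

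CTCF is a zinc finger protein, present in nearly all cells, that holds cohesin at its sites and so shapes chromatin loops. CTCFL, also known as BORIS, is its paralog, normally made in male germ cells before meiosis. Both proteins bind similar DNA through their zinc fingers, while their N and C termini differ. Stem cells held in LIF and inhibitors are in the naive state of pluripotency.

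The transgene was on in the libraries labelled D. The normalized count (reads per gene divided by a size factor of each library) of Ctcfl (chr2:173093609-173119525, minus strand, GRCm38) was 193, 225 and 206 in U and 7764, 9398 and 7570 in D. Its log2 fold change was 5.30 ± 0.10 (SE, adjusted p = 2.2e-19, limma). Ctcf was at 4644, 5270 and 5278 in U and 4251, 4573 and 4959 in D, which overlap, with a log2 difference of -0.14 ± 0.07 (adjusted p = 0.13). Reads recovered from the normalized counts numbered 18820806 to 25734926 in U and 6847072 to 43154741 in D, with replicate 3 of D the shallowest, where 1 read is worth a normalized count of 3.75. Across genes, log2 values correlated at 0.962 to 0.981 within groups and at 0.942 to 0.960 between them. Pluripotent stem cell markers summed to 180205 to 196865 in U and 135330 to 143925 in D, and germ cell markers, which the cells already expressed, to 7380 to 7729 and 7998 to 8268. Primitive endoderm markers summed to 6334 to 7225 and 5345 to 5703, neural markers to 1337 to 1706 and 779 to 846, mesoderm markers to 101 to 135 and 191 to 210, and fibroblast markers to 917 to 1136 and 1281 to 1564 in U and D. Trophoblast markers summed to 618 to 666 in U and 644 to 808 in D, and 2-cell-like markers to 66.2 to 92.9 and 60.2 to 82.4. Tpbpa, Dcx and Tcstv1, of the trophoblast, neural and 2-cell-like markers, were at 0 in all 6 libraries. Each was the only member of its set to be so.

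More genes rose than fell, and those that rose were mostly low before induction. Of 16840 genes with a mean of at least 10, 634 (3.76%) were called higher and 360 (2.14%) lower in D, 994 (5.9%) in all, where a call needs a log2 change larger than 1 and a limma p, adjusted after Benjamini and Hochberg, below 0.01. The median value of the genes called higher went from 59.3 in U to 177 in D, and that of the genes called lower from 205 to 80.6, against a median of 416 in U over all tested genes. A U mean under 10 was found for 83 of the genes called higher (13.1%) and for 819 of all tested genes (4.86%). The minimum mean was taken over all 11 libraries of the CTCFL line. A gene under 10 in U was thus tested only where other groups raised its mean, which favours genes that rose. More than 4-fold changes were seen in 196 genes called higher and 69 called lower, and more than 8-fold in 73 and 17. The 3 D libraries lay apart from the 3 U libraries for 631 of the 634 and 356 of the 360, and for 7869 of all tested genes (46.7%), of which 3943 were higher in D (23.4% of those tested). At any fold, 4201 genes (24.9%) had an adjusted p under 0.01, 2083 higher (12.4%) and 2118 lower (12.6%). The median log2 fold change of all tested genes was -0.0028.

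**Figure D1:**
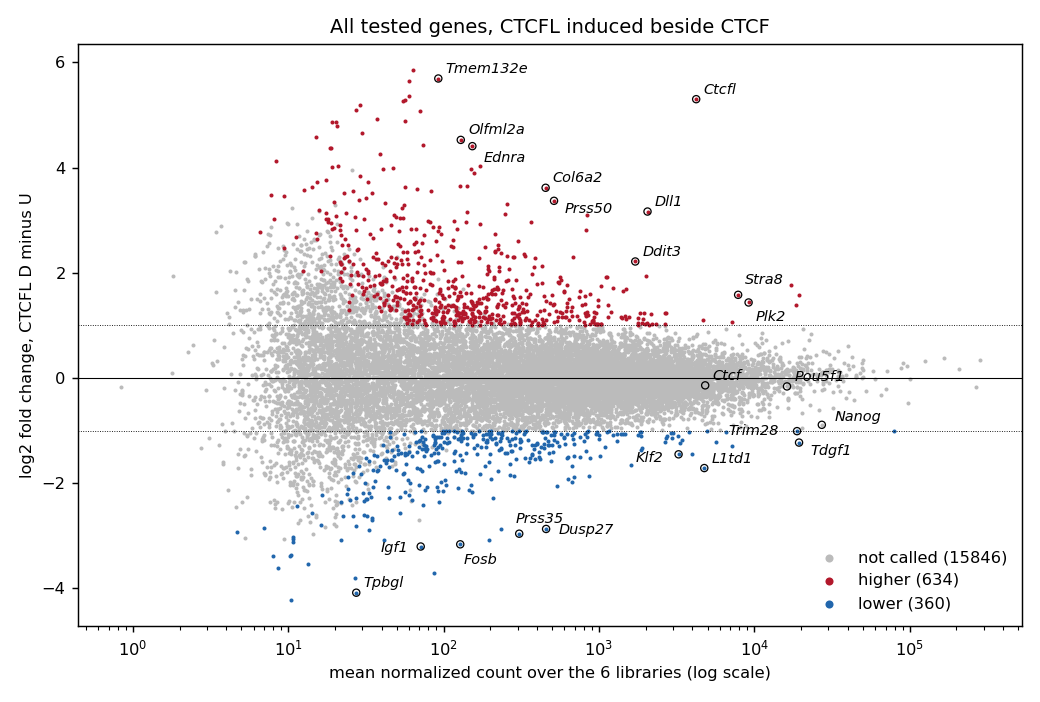
Log2 fold change of D minus U against the mean normalized count of the 6 libraries (log scale) for the 16840 tested genes, with 634 called higher in red, 360 called lower in blue and dotted lines marking log2 values of 1 and -1. Ctcfl stands apart at high counts, Dll1, Prss50 and Col6a2 follow, and Nanog lies just inside the line for lower genes.

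Several genes that rose had a CTCFL site at their start, and the DNA at the summit often held the letters AGGNGGC, which form the core of the motif that CTCF and CTCFL share. Sites were taken from the authors' FLAG ChIP-seq peaks of CTCFL D cells, as regions with a peak in both replicates whose middle lies within 3 kb of an annotated start. Of the 99 named genes called higher with a matched start, 76 had such a site, and 45 of those held AGGNGGC on either strand within the 300 bases around the summit, 32 of them at most 50 bases from it. The windows below were chosen among sites with a match, from leading members of the germ line, signalling, matrix, junction and interferon lists and from top-ranked genes, each 30 bases of the GRCm38 reference, on the strand that carries the match, with the match in capitals.
Prss50 (chr9:110857898-110857927, plus strand): gaatggcatctAGGGGGCgccacgcaggct
Prss48 (chr3:86002664-86002693, minus strand): cccaagacagtAGGGGGCgctgcacagtcc
Sycp2 (chr2:178407737-178407766, plus strand): cgcctgccagcAGGGGGCgctgtgccgtgc
Tex19.2 (chr11:121118390-121118419, minus strand): atgcgcgctgtAGGGGGCgccaggcctcat
Olfml2a (chr2:38932209-38932238, plus strand): tgatcggcgcgAGGGGGCgctatggctgac
Tmem132e (chr11:82388787-82388816, plus strand): gcagatcctgcAGGGGGCaccagcccgggg
Tgfb1 (chr7:25688252-25688281, plus strand): agggagcccccAGGGGGCgccggagtgcag
Adamts1 (chr16:85803174-85803203, minus strand): cgactgagctcAGGGGGCggtgtcgcagtg
Cldn1 (chr16:26371885-26371914, minus strand): acgaaaccaccAGGGGGCgctgcatgccgg
Ifih1 (chr2:62646077-62646106, plus strand): tggcacccggcAGGGGGCagacgagccagg
The form AGGGGGC, shown in these 10, was found at the match nearest the summit in 26 of the 45 named genes with a match. For Cbln2 and Ablim3, which count in the 45, neither the form nor the distance to the summit was read. Sites with no match in their summit windows lay at Stra8, Col6a2, Ednra and Cr2, among others. AGGNGGC was found in 312 of 550 summit windows of promoter sites of genes called higher (56.7%), in 59 of 126 of genes called lower (46.8%) and in 3813 of 7684 of all tested genes (49.6%). It was found in 10645 of the 22294 summit windows of all CTCFL D sites (47.7%) and in 4003 of as many windows 1 kb away. In RefSeq promoters of 300 bases (GRCm38.p6), it was found in 47.7% of those of genes called higher, 37.3% of those of genes called lower, 40.9% of those of all tested genes and 29.4% of all 32851.

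The 20 largest rises at a D mean of at least 50 had varied products, from receptors and secreted proteins to enzymes. Tmem132e, a transmembrane protein gene linked to hearing, was at 2.69, 0.99 and 4.64 in U and at 225, 191 and 131 in D. Olfml2a, a secreted matrix protein, was at 14.8, 5.93 and 10.4 in U and at 229, 252 and 262 in D. Ednra, the endothelin A receptor, was at 12.1, 9.88 and 17.4 in U and at 281, 262 and 337 in D. The groups lay far apart in each case, with log2 fold changes of 5.69 ± 0.52, 4.53 ± 0.37 and 4.41 ± 0.34 (SE, adjusted p of 3.4e-08, 7.2e-09 and 3.6e-09). The orphan receptor Ror1, the GABA receptor subunit Gabra5, the G protein regulator Rgs6, the complement receptor Cr2 and the synapse organisers Cbln2 and C1ql2 were among the 20 largest rises. So were the enzymes Galnt14 and B3gat2, which add sugars to proteins and glycans, Pck1, which makes phosphoenolpyruvate in gluconeogenesis, and Fam20a, a partner of a secretory kinase. Zp1, a component of the egg coat, the kinase Styk1, the channel regulator Abcc9 and the actin-binding Ablim3 complete the group, with Pvalb, Ctcfl and Ctcflos. The 3 U libraries together held 2 to 7 recovered reads of Pvalb, Tmem132e, Ror1, Gabra5, Galnt14, Rgs6, Styk1 and Abcc9, so the fitted size of such rises depends on the pseudocount. Ctcflos overlaps Ctcfl on the other strand, and the strand setting of the counting was not given in the sources used here, so their reads cannot be told apart. A CTCFL site lay at the start of 16 of these 20 genes, and at 3 of the 15 genes with the largest falls. The share among all tested genes with a matched start was 43.4%. Ctcfl, whose reads include those of the transgene, and Ctcflos are both among the 16 and share 1 site.

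Some germ line genes rose, most of them testis serine proteases, early meiosis genes and cancer testis antigens. The testis serine protease list had 5 of 13 tested members higher and 1 lower, with a median log2 fold change of 0.98. The median was 0.33 with no minimum on the mean, and 3 were higher at a minimum mean of 50. Prss50, a testis protease and cancer testis antigen, was at 90.2, 107 and 75.5 in U and at 950.1, 925 and 936 in D (3.37 ± 0.16, adjusted p = 1.5e-12, limma). Prss48 went from 0, 3.95 and 1.16 to 55.2, 50.8 and 15.0, and Prss38 from 5.39, 5.93 and 20.9 to 103, 91.0 and 63.7. No U library reached a D library in these 3 genes. Prss41 and Prss42, 2 more testis proteases, named after their values were seen, rose by log2 values of 2.63 and 1.47. Prss35 was the exception and fell from 522, 551 and 560 to 62.2, 78.6 and 67.4. Of the 31 listed proteases, 18 were below the minimum and 9 of those were at 0, and reads of close paralogs could be split between them.

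Of 35 tested meiosis genes 4 rose and none fell, with a median of 0.06. Stra8, the retinoic acid target that commits germ cells to meiosis, was at 3866 to 3985 in U and 11551 to 11940 in D (1.58 ± 0.06, adjusted p = 2.3e-13). Mei1, needed for meiotic breaks, M1ap, a meiotic arrest protein, and Sycp2, an axial element of the synaptonemal complex, rose by 1.35, 1.11 and 1.03. Among 27 tested germ cell and piRNA genes 3 rose (Gfra1, the GDNF coreceptor of spermatogonia, Gtsf1, a piRNA cofactor, and Taf7l, a germ cell TFIID subunit) and Nanos3, a primordial germ cell factor, fell from low counts. Cancer testis antigens had 5 of 28 higher (3 without replicate 2 of D) and 1 lower, among them Tex101, a sperm surface protein gene, at 73.2 to 80.8 in U and 275 to 356 in D, and Mageb4, a MAGE antigen, at 4.04 to 14.8 and 26.6 to 48.7. Pramel7, a preimplantation gene of naive cells, was the member that fell, from between 145 and 157 to between 22.7 and 41.2. None of 12 tested spermatid and sperm genes was called by limma, edgeR or DESeq2, 1 had an unadjusted p under 0.05, and 21 of the 33 listed were below the minimum. The call of Nanos3 was lost in 11 of 13 alternatives, with edgeR and DESeq2 among them, that of Mageb4 in 7 of 13, with edgeR among them, and that of Sycp2 without replicate 3 of D or replicate 1 of U. The list of genes that earlier work or the study links to CTCFL had 11 of 15 tested members higher and none lower, with a median of 1.40, but it was partly chosen on these samples and is no independent evidence of its direction.

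Several pluripotency genes fell, whereas Pou5f1 did not pass the test. In the naive list 5 of 20 genes fell and none rose, with a median log2 fold change of -0.64, and 14 had an adjusted p under 0.01 with lower values in D at any fold against 2 with higher values. Tcl1, an AKT cofactor, was at 992, 893 and 852 in U and at 404, 329 and 243 in D. Klf2, a naive state transcription factor, was at 5175, 4793 and 4334 in U and at 1931, 1598 and 1700.4 in D. Dppa3, which protects maternal methylation, was at 1474 to 1621 in U and 559 to 697 in D, and Prdm14, a repressor of FGF signalling, at 1341 to 1457 and 597 to 640.5. The groups were apart in all 4 genes, with log2 fold changes of -1.51, -1.45, -1.32 and -1.16. In the core list 2 of 12 fell. L1td1, an RNA-binding protein of pluripotent cells, went from 7079, 7585 and 7243 to 2225, 2267 and 2187 (-1.71 ± 0.07, adjusted p = 3.4e-13), and Tdgf1, the Nodal coreceptor, from 28190, 26052 and 27367 to 11905, 11115 and 11806 (-1.23 ± 0.06, adjusted p = 5.1e-12). Nanog had log2 differences of -0.89 and Klf4 of -0.93, both with adjusted p under 0.01 but inside the fold limit, Sox2 was at -0.40 and Pou5f1 at -0.16 (adjusted p = 0.087). Of 14 formative and primed genes Otx2, an epiblast transcription factor, and the WNT inhibitor Dkk1 fell and none rose. In bulk RNA, fewer cells that make a transcript and less RNA per cell cannot be told apart.

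Few genes of other lineages were called. The median log2 fold change was 0.70 for the mesoderm and primitive streak list (0.32 at a minimum mean of 50), 0.44 for trophoblast and -0.39 for primitive endoderm, against -0.37 for the latter with Dox in the CTCF line described further on. Of 16 tested mesoderm and primitive streak genes Mesp2 rose and Gsc fell, of 15 neural regulators Dlx2 rose and Sox1 fell, and of 25 neuronal products 1 rose and Gap43, a growth cone protein, fell. Of 17 trophoblast genes Plac1, a placental surface protein, fell from between 59.3 and 90.2 to between 1.97 and 22.5, and none rose, while at any fold 6 were higher and 3 lower at an adjusted p under 0.01. None of 18 primitive endoderm genes was called by limma, edgeR or DESeq2, although 13 had an unadjusted p under 0.05 and 11 had lower values in D at an adjusted p under 0.01 at any fold, among them Lama1 at -0.61 and Lamc1 at -0.57. None of 12 genes of the 2-cell-like state was called by these tools, with 3 at an unadjusted p under 0.05. The calls of Gsc and Dlx2 did not hold in all fits that left out 1 library. That of Dlx2 was also lost with edgeR. Hox and ParaHox genes had 1 of 35 called, the fall of Hoxb13 from between 101 and 141 to between 33.7 and 42.5.

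Developmental signalling genes were called in the Notch, WNT, TGF-beta, MAPK and Hedgehog lists. The shares over all tested genes were 3.76% higher and 2.14% lower. The TGF-beta and Hedgehog lists had 1 call in each direction, of 29 and 16 tested, close to those shares. With edgeR none of the Hedgehog genes was called. Dll1, a Notch ligand (chr17:15367354-15376872, minus strand), was at 376, 484 and 382 in U and at 3508, 3891 and 3686 in D, a log2 fold change of 3.16 ± 0.11 (adjusted p = 2.3e-14). All D libraries lay above all U libraries. By the rule used here, a peak in both replicates, no CTCFL D site lay within 3 kb of an annotated start of Dll1. The study, in contrast, reports that CTCFL binds the Dll1 promoter, and the difference was not examined. The ligand Jag2 and the Notch targets Hey2 and Nrarp rose by 1.03, 1.24 and 1.24, so that 4 of 29 tested Notch genes were higher and none lower, with a median of 0.26. WNT genes had 7 of 47 higher and 2 lower, with a median of 0.38, and 4 higher without replicate 2 of D. The ligand Wnt9a was at 104, 138 and 96.4 in U and at 386, 428 and 416 in D, the ligand Wnt7a at 0 to 2.69 and 20.7 to 37.5, and the destruction complex gene Apc2 at 4.04 to 20.8 and 29.6 to 69.7. The secreted inhibitor Dkk1 was at 300.3, 303 and 362 in U and 75.0, 90.4 and 86.2 in D, and the receptor Fzd6, named after its value was seen, fell by 1.16. Rnf43 and Nkd2, feedback inhibitors named in the same way, rose by 1.31 and 1.39. The calls of Jag2, Apc2, Rnf43 and Nkd2 did not hold in all fits that left out 1 library. That of Apc2 was also lost with edgeR and DESeq2.

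Tgfb1, the TGF-beta ligand, went from 239.7, 292 and 207 to 783, 990.4 and 805 (1.81 ± 0.15, adjusted p = 1.4e-08), while Tdgf1 was the sole TGF-beta and Nodal gene that fell of 29. In the FGF, EGF and MAPK list 3 of 38 rose, the EGF receptor ligand Areg, the MAPK phosphatase Dusp4 and the ETS factor Etv4, by 2.37, 2.04 and 1.05. Of 16 Hedgehog genes Gas1, a coreceptor, rose and the ligand Ihh fell. None of 25 BMP genes was called by limma, edgeR or DESeq2, with 5 at an unadjusted p under 0.05. Axon guidance genes had the most calls of the 54 lists, 14 of 58 higher and 2 lower, with a median of 0.36, although by share the testis CTCFL targets and testis serine proteases had more called higher. Over the alternatives 8 to 17 were higher and 0 to 2 lower, with 8 without replicate 1 of D and 9 without replicate 1 of U. The ligand Efnb2 went from 284, 297 and 273 to 996, 902 and 1004 (1.76 ± 0.12, adjusted p = 5.7e-10). The netrin receptor Unc5c, the Slit receptor Robo3 and the semaphorin Sema3d, all low in U, rose by 4.37, 2.27 and 2.02. Slit1, Ntn1 and the plexin Plxna2, named after their values were seen, rose by 1.68, 1.63 and 1.39, and the ephrin receptors Epha4 and Epha8 fell by 1.01 and 1.03. Of the 14 that rose, 12 had a CTCFL D site at a start, as did 39 of the 58 tested members. The calls of Etv4, Gas1, Ihh, Unc5c, Robo3, Sema3d, Epha4 and Epha8 did not hold in all fits that left out 1 library. That of Epha8 was lost in 10 of 14 alternatives, with edgeR and DESeq2 among them. Those of Gas1 and Robo3 were lost in 7 of 14 and 7 of 13, with edgeR among them. Ihh and Epha4 lost their calls with edgeR too.

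**Figure D2:**
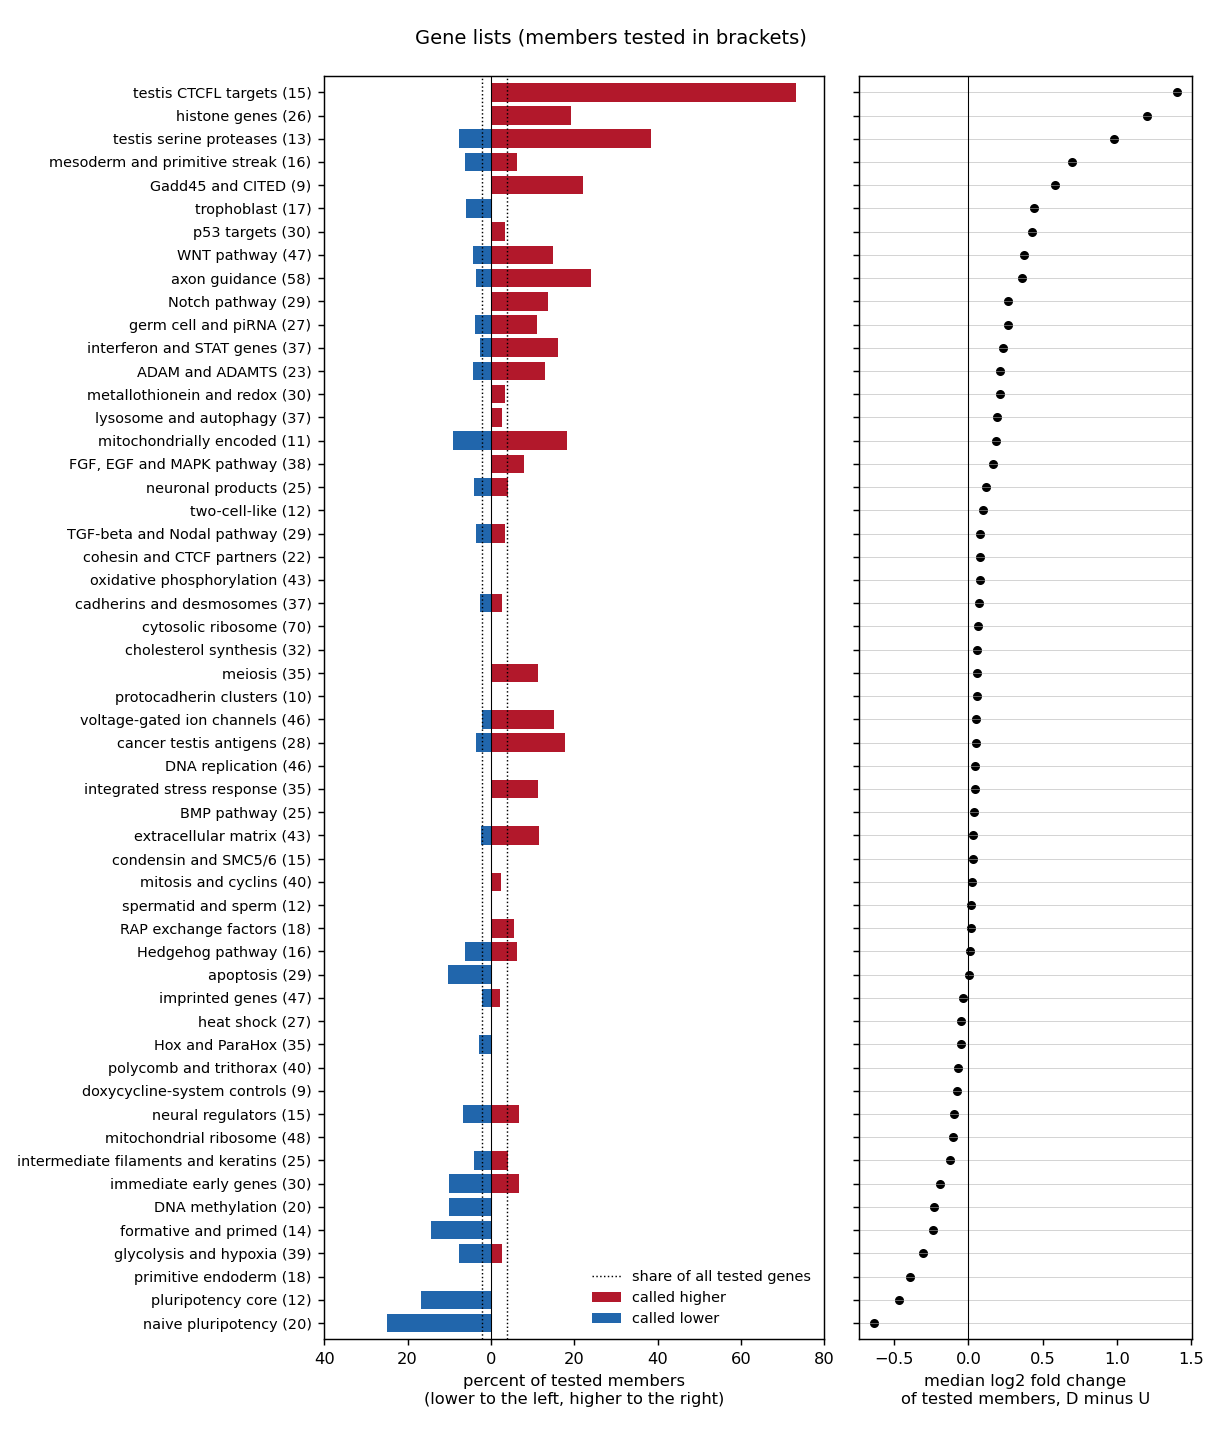
Left, percent of tested members called higher (red, to the right) or lower (blue, to the left) in 54 gene lists ordered by median, with tested members in brackets and dotted lines at the shares of all tested genes (3.76% and 2.14%). Right, median log2 fold change of D minus U, from -0.64 in naive pluripotency to 1.40 in the testis CTCFL targets.

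Matrix genes and secreted proteases rose in part. Col6a2, a collagen VI chain (chr10:76595762-76623630, minus strand), was at 68.7, 74.1 and 60.4 in U and at 786, 917 and 817 in D (3.62 ± 0.15, adjusted p = 2.3e-13). Its partner Col6a1 was at 33.7 to 47.6 in U and 60.2 to 125 in D, and Col1a1, the main chain of bone and skin collagen, at 228 to 288 and 667 to 803. The matrix protease Mmp9 rose by 1.96 and the fibrillin Fbn1 by 1.22, while the protease inhibitor Timp2 fell by 1.01, which makes 5 of 43 higher and 1 lower with a median of 0.03. Genes of symbol Col had 7 of 36 called higher and none lower, among them Col23a1 and Col2a1 with rises of 2.31 and 2.29. In the ADAM and ADAMTS list 3 of 23 rose and 1 fell. The procollagen protease Adamts2 was at 45.8, 44.5 and 61.5 in U and at 442, 505 and 386 in D, and the aggrecanase Adamts1 at 210.1, 227 and 252 in U and at 1088, 1143 and 1172 in D. Adamts15 rose by 1.40 and Adamts9 fell by 1.13. Of 37 cadherin, claudin and desmosome genes the tight junction gene Cldn1 rose by 3.01 from low counts and the cadherin Cdh22 fell by 1.44. None of the 10 clustered protocadherins tested was called by limma, edgeR or DESeq2, 1 had an unadjusted p under 0.05, and 47 of the 57 in the table were below the minimum. The calls of Col6a1 and Timp2 did not hold in all fits that left out 1 library. That of Timp2 was also lost with edgeR and with a pseudocount of 5.

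Ion channel genes rose from low levels, with 7 of 46 voltage-gated channel genes higher and 1 lower and a median of 0.05. The potassium channel Kcnh1 was at 53.9, 66.2 and 84.8 in U and at 376, 361 and 345 in D, and the calcium channel subunit Cacnb2 at 12.1, 8.89 and 10.4 in U and at 81.9, 95.1 and 105 in D. Kcna2 was at 1.35, 0 and 0 in U and at 40.5, 31.9 and 41.2 in D. Kcnq1, a cardiac potassium channel within an imprinted cluster, went from 45.8, 20.8 and 13.9 to 169.7, 167 and 116. Kcnh6, named after its value was seen, was the member that fell. The call of Kcnh6 did not hold in all fits that left out 1 library, nor with edgeR or DESeq2.

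Stress and immune genes were called in small numbers. Ddit3, the CHOP transcription factor of the integrated stress response, was at 657, 519.8 and 650.3 in U and at 3041, 2735 and 2678 in D (2.21 ± 0.09, adjusted p = 3.4e-13), and Ern1, the sensor IRE1, Ddit4, an inhibitor of mTOR, and Sdf2l1, an ER chaperone cofactor, rose by 1.23, 1.11 and 1.10. These 4 were called of 35, with none lower and a median of 0.04. In the p53 list Plk2 alone of 30 was called, from 4756, 5029 and 5093 to 12699, 14069 and 13480, and the median was 0.43. The p53 median was 0.19 with Dox in the CTCF line and 0.13 in ID against I. At any fold 18 of these 30 had an adjusted p under 0.01 with higher values in D and 2 with lower, among them Mdm2 at 0.85, Cdkn1a at 0.66 and Trp53 itself at -0.69. Of 37 interferon and STAT genes 6 rose and 1 fell, with 3 higher without replicate 1 of D. Their median was 0.23, against 0.22 with Dox in the CTCF line and 0.41 in ID against I. Tap2, a peptide transporter of antigen presentation, was at 48.5, 65.2 and 85.9 in U and at 393, 418 and 326 in D, and the RNA sensor Ifih1 at 5.81 to 15.8 and 80.9 to 97.4. The antiviral membrane protein Ifitm1, high in stem cells, fell from 1136, 1033 and 819 to 231, 271 and 281. Usp18, an interferon-induced protease, rose from between 0 and 1.98 to between 11.2 and 41.4. The call of Usp18 did not hold in all fits that left out 1 library.

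A few genes of acute signalling and cell death fell. Fosb, an AP-1 subunit, was at 265, 218 and 207 in U and at 30.6, 32.5 and 15.0 in D (-3.16 ± 0.32, adjusted p = 1.4e-07). Egr2 and Ier3 fell and Nr4a3 and Atf3 rose, so that 2 of 30 immediate early genes were higher and 3 lower (1 lower without replicate 3 of D). Of 29 apoptosis genes 3 fell, the ubiquitin ligase Birc3, the kinase Ripk1 and the adaptor Fadd, all of which act at death receptors, by 1.40, 1.34 and 1.01 on the log2 scale, and none rose. Genes of symbol Bcl had 3 of 19 lower and none higher, Bcl2l14, Bcl3 and Bcl2l12. Gadd45g, a stress adaptor, and Cited1, a cofactor of p300, rose by 1.72 and 1.59. The calls of Egr2, Ier3, Nr4a3, Fadd and Bcl2l12 did not hold in all fits that left out 1 library. That of Ier3 was also lost with edgeR and DESeq2, and that of Fadd with edgeR and with a pseudocount of 5.

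Most housekeeping lists had no calls. None of 70 cytosolic ribosome, 43 oxidative phosphorylation, 48 mitochondrial ribosome, 46 DNA replication, 32 cholesterol synthesis, 40 polycomb and trithorax, 22 cohesin, 15 condensin and 27 heat shock genes was called by limma, edgeR or DESeq2, with medians from -0.10 to 0.08. An unadjusted p under 0.05 was reached by 16, 15, 20, 24, 16, 19, 11, 7 and 17 of them, and an adjusted p under 0.01 at any fold by 3, 5, 13, 12, 10, 10, 7, 5 and 11. Genes of the symbols Rpl, Rps, Mrpl, Ube and Zbtb (83, 71, 50, 41 and 40 tested) had none called. Of 40 mitosis genes Cdk6 rose by 1.18. In glycolysis and hypoxia 1 of 39 rose and 3 fell with a median of -0.31, and 22 had lower values in D at an adjusted p under 0.01 at any fold. The median of this list was -0.35 with Dox in the CTCF line and 0.09 in ID against I. The hypoxia targets Ankrd37, Bnip3 and Egln3 fell by 1.58, 1.27 and 1.25 on the log2 scale, and the neuronal enolase Eno2 rose by 1.16. The lysosomal protease Ctsh rose by 3.16, and 15 of 37 lysosome genes had higher values at an adjusted p under 0.01. Of 30 metallothionein and redox genes the quinone reductase Nqo1 rose by 1.41.

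Chromatin genes had few calls. Trim28, the corepressor that binds zinc finger repressors at retroelements and imprints, was at 26566, 24824 and 24149 in U and at 12819, 12237 and 12409 in D (-1.01 ± 0.06, adjusted p = 1e-10), close to the fold limit. With Dppa3 it made 2 of 20 DNA methylation genes lower, and none was higher. Histone genes had 5 of 26 tested higher and none lower, and 26 of the 52 listed were below the minimum. Their median was 1.20, against 0.55 with Dox in the CTCF line and 0.58 in ID against I. Over the alternatives 2 to 7 were higher and the median ran from 0.23 (minimum mean of 50) to 1.39, with 2 higher without replicate 1 or 3 of D or replicate 2 of U. Hist3h2ba went from 22.9, 22.7 and 13.9 to 75.0, 104 and 154, and the linker histone Hist1h1e from 10.8, 11.9 and 31.4 to 109, 41.4 and 52.4. Most replication-dependent histone transcripts lack a poly(A) tail and the RNA was poly(A)-selected, so these low values depend on what passed the selection. Of 47 imprinted genes Kcnq1 rose and Phlda2, a placental growth repressor, fell by 1.08. The mitochondrial transcripts mt-Rnr1 and mt-Nd6 rose by 1.57 and 1.24 and mt-Nd1 fell by 1.00, 3 calls of 11. The calls of Cdk6, Trim28, Hist1h1e and mt-Nd1 did not hold in all fits that left out 1 library. That of mt-Nd1 was also lost with edgeR.

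Symbol families with at least 15 tested members and at least 15% called in the same direction numbered 8 of 94. Wnt had 5 of 16 higher, Hist 5 of 20, Sema 4 of 19, Col 7 of 36, Tex 3 of 18, Abhd 3 of 20, and Mfsd, a family of transporters, 3 of 20 with 1 lower. Mfsd6 went from 253, 261 and 223 to 883, 914 and 899. Below that share, the zinc finger genes of symbol Zfp, named after their values were seen, had 25 of 384 lower (6.51%) and 4 higher, with a median of -0.30. On chromosomes with more than 100 tested genes, the share called higher ran from 27 of 1088 genes (2.48%) on chromosome 5 to 24 of 546 on chromosome 19, and that called lower from 1 of 383 (0.261%) on chromosome 18 to 57 of 1340 (4.25%) on chromosome 7.

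The largest falls at a U mean of at least 50 held few members of the lists. Dusp27, an atypical phosphatase of muscle, was at 772, 827 and 814 in U and at 117, 123 and 89.9 in D (-2.87 ± 0.16, adjusted p = 1.5e-11). Cyp4f14, a fatty acid hydroxylase, was at 405, 402 and 426 in U and at 49.3, 65.0 and 52.4 in D, and the growth factor Igf1 at 117, 148 and 121 in U and at 18.8, 15.4 and 7.49 in D. The groups were apart in each. Tpbgl, a leucine-rich repeat membrane protein, went from 39.1, 55.3 and 60.4 to 0, 2.36 and 7.49. The others were Fosb, Plac1, Prss35, the prolactin receptor Prlr, the myogenic repressor Msc, the T cell receptor chain Cd247, the lipid hydrolase Aoah, the aminoacylase Aspa, the zinc finger gene Zfp819, the matrix gene Egflam and Dppa3-ps, whose reads may belong in part to Dppa3. The call of Aspa did not hold in all fits that left out 1 library, nor with edgeR.

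**Figure D3:**
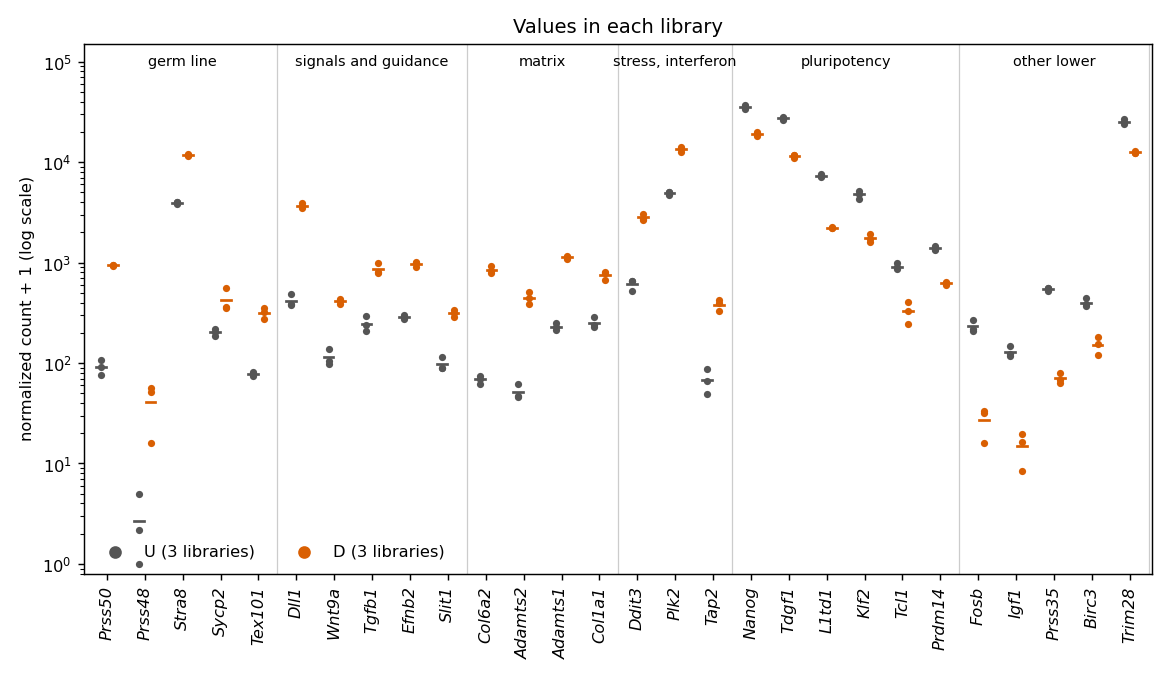
Normalized count plus 1 (log scale) of 28 genes in the 3 U (grey) and 3 D (orange) libraries, with a bar at each mean, grouped by function. The D points of the germ line, signal, matrix and stress genes lie above the U points and those of the pluripotency and other lower genes below them, with no overlap in any of the genes shown.

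Dox also induced a Flag-CTCF-mRuby2 transgene in the CTCF line (2 U and 3 D libraries, none shared with the CTCFL line). Dox was not given without a transgene to induce, so effects of Dox and of the induced protein cannot be told apart in either line. There 36 of 16705 genes (0.216%) were called higher and 40 (0.239%) lower, 76 (0.455%) in all. Of the 634 genes called higher in the CTCFL line, 8 (1.26%, and 22.2% of the 36) were called higher in the CTCF line. Of the 360 called lower, 13 (3.61%, and 32.5% of the 40) were called lower there. The median log2 fold change of the 634 and the 360 in the CTCF line was 0.22 and -0.26. Pvalb, a calcium buffer gene, rose in both lines, by 5.85 with CTCFL and 4.57 with CTCF, and Rapgef4, an exchange factor for RAP GTPases, by 2.74 and 3.38. Bnip3, Igf1, Plac1, Zfp819 and Adamts9 fell in both lines. The difference between the Dox effects passed the same thresholds in the interaction test for 345 of 16867 genes in the direction higher with CTCFL (2.05%) and 276 lower (1.64%), 621 (3.68%) in all, which include 240 of the 634 and 139 of the 360. Without replicate 2 of CTCF U these counts were 203 and 155, 358 in all, in a fit where the lone CTCF U library left is assumed to vary like the other groups. The differences were 2.95 for Dll1, 3.68 for Col6a2, 3.19 for Prss50, 1.47 for Stra8, -1.25 for L1td1, -1.004 for Tdgf1 and -1.04 for Trim28.

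The same induction in cells depleted of CTCF gave a response that overlapped in part. In ID against I (2 and 3 libraries, none shared with U and D), 663 genes were called higher (3.94%) and 655 lower (3.89%), 1318 (7.83%) in all. They include 301 of the 634 called higher beside CTCF (47.5%, and 45.4% of the 663) and 141 of the 360 called lower (39.2%, and 21.5% of the 655), whereas 0 and 2 were called in the opposite direction. The median of the 634 was 1.15 and that of the 360 was -0.94 in ID against I. The difference of the effects passed for 277 genes in the direction higher with CTCF (1.64%) and 180 lower (1.07%), 457 (2.71%) in all. Among the 634, 31 rose more beside CTCF and 22 rose more without it, and among the 360, 20 fell more beside CTCF and 3 fell more without it. Both sets were chosen on D against U, and those libraries enter the difference too, which favours larger effects beside CTCF. Such a choice also favours smaller medians in ID against I. Dll1 rose by 3.16 beside CTCF and 1.80 without it (difference 1.36 ± 0.17, SE), Adamts1 by 2.30 and 1.13 (1.17), and Wnt9a had values of 1.87 and 0.69 (1.18). Gadd45g and the semaphorin Sema3c were at 1.72 and 1.62 beside CTCF and at -0.48 and -0.60 without it. The intermediate filament gene Ina was at -1.45 and 0.29, Ankrd37 at -1.58 and 0.09, Bnip3 at -1.27 and -0.24, and Tcl1 at -1.51 and -0.51. For Prss50, Olfml2a, Tdgf1 and Dppa3 the difference did not pass, with values of -0.80, 0.08, -0.15 and -0.01.

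**Figure D4:**
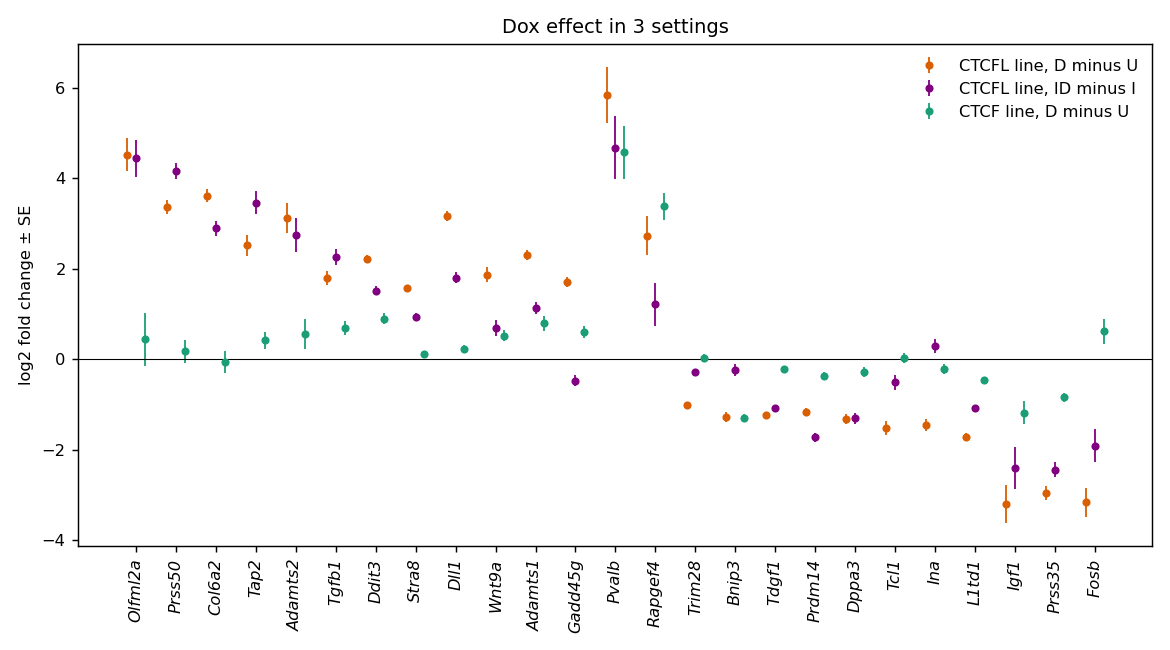
Log2 fold change ± SE of 25 genes in D minus U of the CTCFL line (orange), ID minus I of the CTCFL line (purple) and D minus U of the CTCF line (green). The green points lie between -0.07 and 0.44 for Olfml2a, Prss50, Col6a2 and Dll1 and high for Pvalb and Rapgef4, and the purple points lie near 0 or on the other side for Gadd45g and Ina.

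CTCFL sites were more frequent at starts of genes that rose and less frequent at starts of genes that fell, as shares without a test. Of the genes with a matched start, 437 of 614 called higher (71.2%), 106 of 344 called lower (30.8%) and 7108 of all 16394 tested (43.4%) had a site. The share was 54 of 70 for log2 fold changes above 3 and 298 of 424 for those from 1 to 2, and it was 94 of 277 from -2 to -1 and 12 of 67 below -2. It differed within ranges of the U mean too: under 50 it was 65.8% of genes called higher against 32.9% of all tested, from 50 to 500 it was 73.4% against 42.9%, and above 500 it was 86.8% against 48.7%. Read the other way, 6.15% of tested genes with a site rose and 1.49% fell, against 1.91% and 2.56% of those with none. A site of CTCFL with none of the CTCF ID transgene lay at 31.8% of genes called higher, 9.88% of genes called lower and 19.5% of all tested genes, and sites of both lay at 39.4%, 20.9% and 23.9%. Of the pluripotency genes that fell, none of the 5 naive genes had a CTCFL site, although 12 of the 20 tested naive genes did, whereas both core genes (L1td1 and Tdgf1) and both formative genes (Otx2 and Dkk1) had one.

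**Figure D5:**
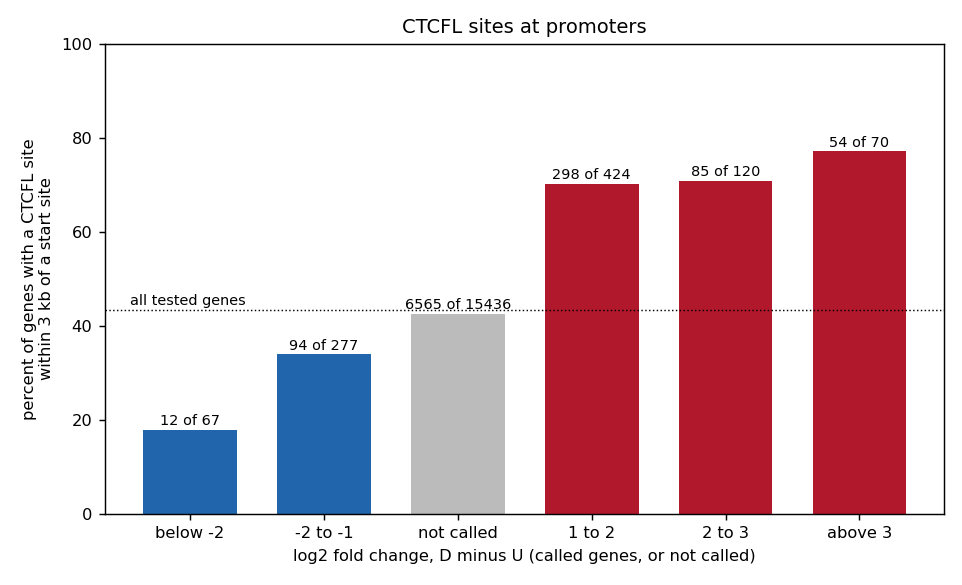
Percent of genes with a CTCFL D site within 3 kb of a start, by log2 fold change of D minus U, with counts above the bars and a dotted line at the 43.4% of all tested genes. The share runs from 12 of 67 genes in the group below -2 to 54 of 70 in the group above 3.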

How the data were processed

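The deposited RNA table holds normalized counts (a signal, not whole reads) of 52459 genes in 38 libraries. The authors prepared directional poly(A) libraries, trimmed reads with Trim Galore 0.4.4, aligned them to GRCm38/mm10 and divided gene counts by size factors. The strand setting of the counting was not given in the sources used here. Whole reads were recovered in 36 libraries (tolerance 0.1 of 1 read), all 6 of U and D among them, with 100% of the checked values whole. The authors called ChIP-seq peaks with MACS per replicate, and the deposited files give each peak's fold enrichment (ratio) and −log10 q.

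log2(normalized count + 1) was fitted in limma 3.58.1 (R 4.3.3) over the 11 libraries of the CTCFL line, for genes with a mean of at least 10, so fold changes of low genes are understated. Interactions were tested in the same way. edgeR 4.0.16 and DESeq2 1.42.0 on recovered reads were alternatives. The tests were checked on simulated data. Named genes were Ctcfl, Ctcf, the 20 largest rises and 15 largest falls among genes with a mean of at least 50 in the higher group, no overlap of libraries and no clone-like symbol, up to 4 called members of each of 54 lists (up to 2 of the highest mean where none was called), the testis CTCFL targets and up to 3 called members of a named symbol family. Fbn1, Timp2, Ier3, Epha4, Epha8, Mdm2, Cdkn1a and Trp53 were named after their values were seen, and Nanog, Klf4, Sox2 and Pou5f1 as pluripotency markers. The members and lists were chosen with earlier results of these data known. The depth of CTCFL I replicate 2 and CTCFL ID replicate 2 is unknown. Results of some genes are not reported here.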

Additional observations from a re-analysis of the deposited data

Results flagged for a closer look

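Each result here was singled out because an interaction test found 2 effects of the same contrast to differ, at the thresholds of the report. The Dox effect in the CTCFL line minus that in the CTCF line passed for 345 genes in the higher and 276 in the lower direction, with log2 differences of 2.95 for Dll1, 3.68 for Col6a2, 3.19 for Prss50, 1.47 for Stra8, -1.25 for L1td1, -1.004 for Tdgf1 and -1.04 for Trim28.

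The CTCFL effect with CTCF minus that without CTCF passed for 277 genes in the higher and 180 in the lower direction. The log2 differences were 1.36 for Dll1, 1.17 for Adamts1, 1.18 for Wnt9a, 2.19 for Gadd45g, 2.22 for Sema3c and 4.57 for Styk1, which had 2 reads in all in U. They were -1.003 for Tcl1, -1.67 for Ankrd37, -1.04 for Bnip3, -1.74 for Ina, -3.40 for Prss41 and -4.38 for Nkd2. The last pair rose in D against U.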

How the results depend on the processing

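The counts called in D against U stayed within 1.5 times the reported 994 in all alternatives, from 809 (minimum mean 50) to 1077 (DESeq2), and from 844 to 921 leaving out 1 library. The other settings were TMM scaling, edgeR, a pseudocount of 5, no minimum, and U and D alone. Of the 994 calls, 763 to 989 were kept. With the replicate number as a block (replicate block) 948 were called. After each gene's group mean was subtracted, same-numbered U and D libraries correlated at 0.03, 0.06 and 0.01. Libraries of unlike number correlated at -0.06 to 0.02, so the numbers show little sign of a pairing. The difference from the CTCF line gave 358 genes (203 higher, 155 lower) without replicate 2 of CTCF U and 358 to 647 (203 to 362 higher, 155 to 320 lower) over all left-out libraries. The cause was not tested. With 1 library left in CTCF U or ID, its spread is taken from the other groups. The difference with and without CTCF gave 356 to 516.

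The share of genes with a CTCFL site, in the order called higher, called lower and all tested, was 62.9%, 21.8% and 33.8% within 1 kb and 65.3%, 26.2% and 35.5% when the −log10 q had to reach 5. Counting peaks of a single replicate, it was 71.7%, 32.6% and 44.5% without replicate 1 and 81.6%, 48.8% and 62.8% without replicate 2. Among protein-coding genes alone it was 73.3%, 33.3% and 46.1%. The order of the groups was the same in each.

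Of 149 called genes named in the text, 118 were called in all alternatives and none changed direction. The other 31 lost the call in at least 1 fit that left out a library, and 23 of them in another setting too. Leaving out U replicates 1, 2 and 3 cost 23, 15 and 15 of these calls and leaving out D replicates 1, 2 and 3 cost 12, 12 and 14. At these depths, genes under about 10 normalized counts in U rest on few reads.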
